A study of Mus musculus with 2 samples.

Results

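The genes that build and sulphate glycosaminoglycans, the long sugar chains carried by cartilage proteoglycans, were compared between rib chondrocytes of 1 wild-type and 1 mutant pool of mice. The members were 45 genes chosen by function, covering the linker that joins a chain to its core protein, chondroitin, dermatan, heparan and hyaluronan synthesis, the enzymes that sulphate the chains, and the supply of sulphate and sugars. Of these, 43 had at least 1 probe set tied to that gene alone, among 18193 genes so measured. Xylt1, which encodes a xylosyltransferase that starts the linker, and Ndst1, which encodes an enzyme that removes acetyl groups from heparan chains and sulphates them, had no such probe set and were not analysed here.

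The wild-type group was 1 array of cartilage RNA from mice aged 5 days. The mutant group was 1 array from mice of the same age with a V156D knock-in of Matn1, the gene of matrilin-1, a cartilage matrix protein that forms oligomers. Rib chondrocytes of both groups were freed with collagenase, and cells of 5 littermates were pooled before RNA extraction. The labels do not say whether 5 animals were pooled for each genotype, whether the mutants carried 1 or 2 mutant alleles, what the strain was or which sex the animals were. With 1 array a group there is no replicate error, so no test is given, and every difference below is between 2 arrays and is not shown to be one between genotypes.

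Glycosaminoglycan chains other than hyaluronan are made mainly in the Golgi. Xylose is put on a serine of the core protein, a short linker is finished on it, and the next sugar added decides whether the chain becomes chondroitin or heparan sulphate. Chondroitin sulphate on aggrecan binds water and lets cartilage resist compression, while heparan sulphate on syndecans, glypicans and perlecan binds growth factors such as FGFs and hedgehog proteins. Both need UDP-sugars and an activated sulphate donor, called PAPS, that is made in the cytosol and carried into the Golgi, and growth cartilage is known for its high demand for sulphate.

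No member differed 1.5-fold between the arrays. A gene counted as above the floor when its brightest probe set had a mean log2 intensity of at least 5.77, the median over all probe sets, which is an intensity of 54.6. All 43 measured members entered with their values, and 40 were at or above this floor. Of these 40, 0 were higher by 1.5-fold or more in the mutant array and 0 were lower by as much, against 1.7% and 2.02% of the 11329 genes of that brightness. The members at least 2-fold apart were 0 in each direction as well, against 0.653% of all genes higher and 0.256% lower. Because so few genes of the arrays passed that fold, a count of 0 among 40 lies near the background and says little of the list as such. At a smaller threshold, a log2 ratio of 0.32 in size, 2 members were higher, which is 5%, against 5.57% of all genes, and 4 were lower, which is 10%, against 9.25% of all genes. These shares lay near the background too. With each array centred on its median the split at 0.32 was 1 higher and 5 lower, and after quantile normalization 2 and 2.

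The members lay on both sides of 0. Their log2 ratios of mutant over wild type had a median of 0.01 and an SD of 0.22 over the 40 genes, and 21 were above 0 and 19 below. All genes at or above the floor had a median of -0.02 and an SD of 0.27, with 44.8% above 0. The median size of the log2 ratio, regardless of sign, was 0.15 for the members and 0.13 for all genes. Summed over the 43 measured members, the intensity was 38568 in the wild-type and 38728 in the mutant array. The brightest members weigh most in this sum, and Sulf2 alone, whose direction depended on the probe set, went from 4332 to 5076. In RNA from pooled cells, fewer cells of a type and less RNA per cell cannot be told apart, and equal totals do not show equal levels in each cell.

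**Figure D1:**
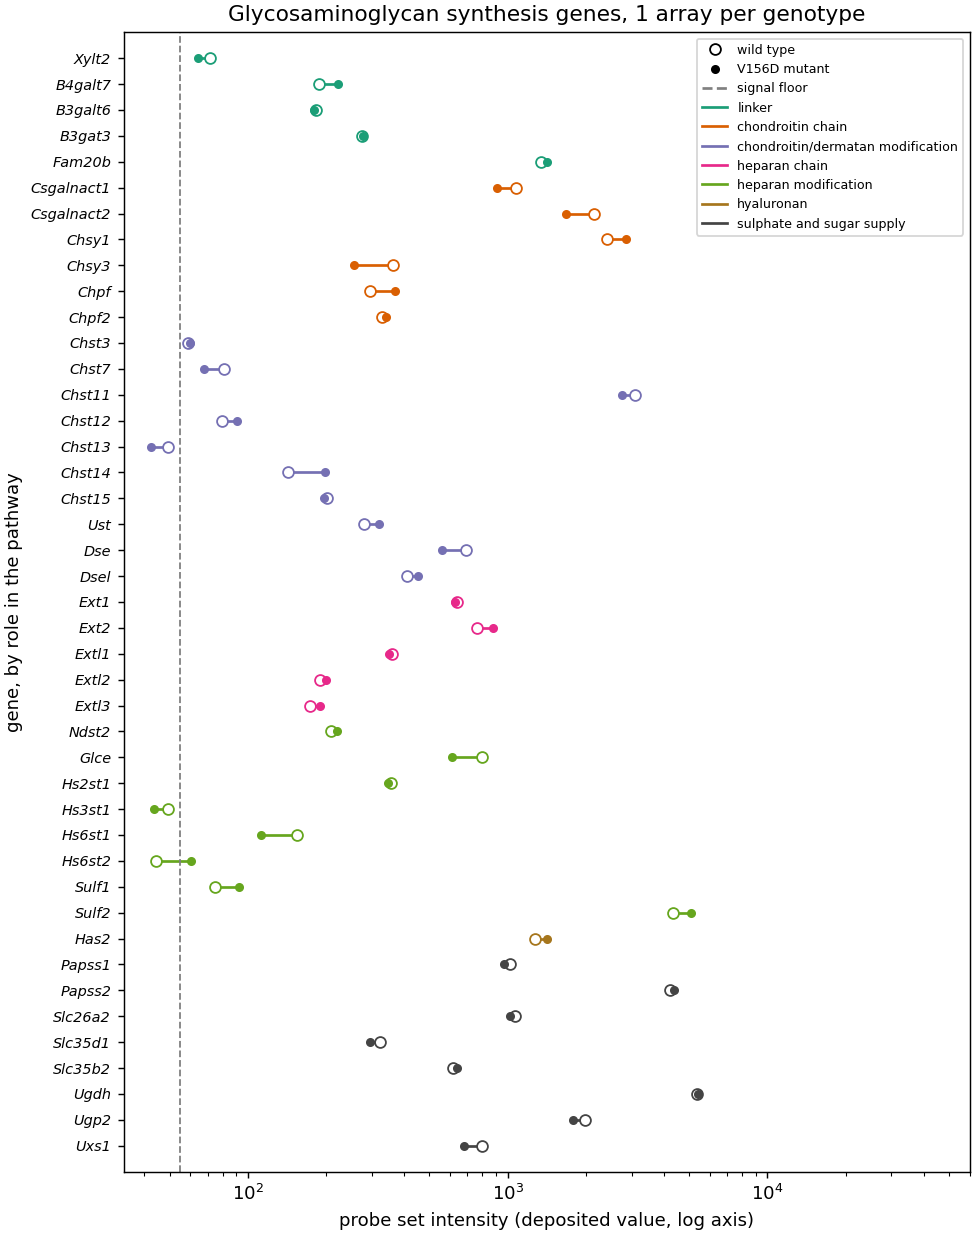
Probe set intensity (x axis, log scale) of the 43 measured genes (y axis, coloured by role), with open circles for the wild-type array, filled circles for the V156D mutant array and a dashed line at the signal floor of 54.6. The circles of most genes lie close together or overlap, and the widest gaps at or above the floor are those of Chsy3, Chst14 and Hs6st1.

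Probe sets of the same gene gave a yardstick for small differences. Across 4878 genes with 2 or more probe sets above the floor, the log2 ratios of the 2 brightest differed with an SD of 0.26, and 31 of the 40 members had a ratio no larger than that, against 78.1% of all genes. Among the 21 members with at least 2 such probe sets, 10 had all of them on the same side of 0 and 11 did not, which is 47.6% with agreement, against 52.5% of all such genes. The widest range among members was 0.46, for Extl2. The SD of 0.26 is that of a difference between 2 ratios, not of a single ratio, and the median size of that difference over all such genes was 0.14. It is thus a rough yardstick, and it may include differences between the transcripts that probe sets match. This is spread within the arrays, not error between animals or pools, and it does not cover what differs between preparations.

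The linker enzymes were close to equal between the arrays. Of 6 listed genes, 5 were measured, all were at or above the floor, and their ratios ran from -0.15 to 0.24 with a median of 0.01. Xylt2, the second xylosyltransferase, had an intensity of 71.4 in the wild-type and 64.4 in the mutant array. B4galt7, which adds the first galactose, had 188 and 222, a log2 ratio of 0.24, while its other probe set gave -0.13, so its direction was not settled. B3galt6, which adds the next galactose, had 184 and 179. It has 2 further probe sets, both below the floor, of which the first had the largest ratio of any member probe set at -0.69, from 37.9 in the wild-type to 23.5 in the mutant array. B3gat3, which closes the linker with glucuronic acid, had 274 and 277. Fam20b, the kinase that phosphorylates the linker xylose, had 1347 and 1424, a ratio of 0.08, with -0.07 and 0.27 from its other probe sets. No linker gene reached 0.32, and none combined a ratio beyond 0.1 with agreement between more than 1 probe set.

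Genes of the chondroitin chain spread more widely than the linker genes, and they did not share a direction. The 6 genes were all measured above the floor, on either side of 0 in equal number, and the median was -0.09 with a range from -0.49 to 0.32. Both N-acetylgalactosaminyltransferases that start the chain were lower in the mutant array. Csgalnact1 had 1074 in the wild-type and 908 in the mutant array, a log2 ratio of -0.24, with -0.14 from its second probe set. Csgalnact2 had 2142 and 1675, a ratio of -0.35, from its single probe set. The chondroitin synthases, which lengthen the chain, lay on opposite sides of 0. Chsy1 was higher in the mutant array, at 2409 and 2864, a ratio of 0.25. Chsy3 was lower, at 361 and 257, or 1.40-fold, and its second probe set gave -0.38. At -0.49 the Chsy3 ratio was the lowest of all members at or above the floor. The polymerizing factors, which work together with the synthases, were on the higher side. Chpf had 294 and 368, a ratio of 0.32, from a probe set whose name marks a possible match to several transcripts. Chpf2 had 328 and 341, a ratio of 0.05, and 0.35 from a second, dimmer probe set. Chsy3 and Csgalnact1 were lower by every probe set, and Chpf2 higher by both.

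Sulphotransferases and epimerases of chondroitin and dermatan sulphate had a median of 0.04 over the 9 of 10 genes at or above the floor, 5 with ratios higher than 0 and 4 lower. Chst11, the chondroitin 4-O-sulphotransferase that cartilage growth is known to need, had 3082 in the wild-type and 2762 in the mutant array, a log2 ratio of -0.16, and 0.02 by its other probe set. Chst12, a second enzyme of the same reaction, had 79.8 and 91.0, a ratio of 0.19. Chst13, which belongs to the same group, was below the floor in both arrays, at 49.3 and 42.5. These enzymes thus gave no common direction. Chst3, the chondroitin 6-O-sulphotransferase whose loss in humans causes a skeletal dysplasia, was just above the floor at 58.7 and 60.2. Chst7, which also sulphates at that position, had 81.2 and 67.7, a ratio of -0.26. Chst15 adds a further sulphate to an already sulphated unit, and it had 201 and 197. Ust, which sulphates uronic acid, had 279.6 and 319.6, a ratio of 0.19, with -0.15 from a probe set below the floor.

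The dermatan branch, in which glucuronic acid is turned into iduronic acid, held the highest ratio of all members. Chst14, the sulphotransferase that fixes dermatan sulphate, had 142 in the wild-type and 197 in the mutant array, a log2 ratio of 0.47 or 1.39-fold, from its single probe set. Dse, the epimerase that acts before it, was on the other side, at 690.4 and 557, a ratio of -0.31. Dsel, the second epimerase, had 409.8 and 453, a ratio of 0.14. Each of these 3 genes had only 1 probe set, so no second measurement was at hand.

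The heparan polymerases lay close to 0. All 5 genes of this group were at or above the floor, with ratios from -0.05 to 0.20 and a median of 0.08. Ext1 and Ext2 encode exostosins that form a heterodimer and lengthen the chain, and loss of either gene in humans causes cartilage-capped bony outgrowths. Ext1 had 637 in the wild-type and 629 in the mutant array, a log2 ratio of -0.02, with -0.04 from its other probe set. Ext2 had 764 and 877, a ratio of 0.20, while 2 probe sets below the floor gave -0.08 and 0.14. Extl1, an exostosin-like gene, had 360.4 and 348. Extl2, whose product can stop chain growth at the linker, had 189.8 and 201 by one probe set and a ratio of -0.38, at 151 and 116, by the other. The signals of Extl2 therefore pointed both ways. Extl3, which adds the first sugar of a heparan chain, had 173 and 190.4, a ratio of 0.14, with 0.14 also from a dim second probe set.

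Genes that modify heparan chains were mixed in direction. Of 9 listed, 8 were measured and 6 were at or above the floor, 3 with ratios higher than 0 and 3 lower, with a median of 0.03. Ndst2, which removes acetyl groups and adds sulphate to nitrogen, had 208 in the wild-type and 219.7 in the mutant array. Glce, the heparan epimerase, was lower in the mutant array at 794 and 608, a log2 ratio of -0.38 or 1.31-fold, and its other probe sets gave -0.33 and, below the floor, -0.21. Glce and Chsy3 were thus the only 2 of the 6 members past 0.32 with support from a second probe set at or above the floor. Hs2st1, the 2-O-sulphotransferase that follows the epimerase, had 354 and 348, a ratio of -0.03, and its 3 other probe sets ran from -0.04 to 0.17.

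The 6-O-sulphotransferases and the enzymes that take their sulphate off were measured with unequal certainty. Hs6st1 had 155 in the wild-type and 112 in the mutant array, a log2 ratio of -0.47 or 1.38-fold, from a single probe set. Hs6st2 had 44.3 and 60.5, below the floor on average, and its 4 probe sets ran from -0.32 to 0.45, so no direction is given. Hs3st1, a 3-O-sulphotransferase known for making the antithrombin binding site, was below the floor in both arrays at 49.1 and 43.6. The extracellular sulphatases, which trim 6-O sulphate from finished chains and so change growth factor binding, both had brightest probe sets on the higher side. Sulf1 had 74.9 and 92.2, a ratio of 0.30, with 0.11 and, below the floor, 0.17 from the others. Sulf2 had 4332 and 5076, a ratio of 0.23, and 0.21 from the next probe set, but -0.20 from the dimmest. That one is the only Sulf2 probe set whose name does not mark a possible match to several transcripts, so its direction depended on the probe set.

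Has2, the synthase that extrudes hyaluronan through the plasma membrane, had 1276 in the wild-type and 1421 in the mutant array, a log2 ratio of 0.15. Its second probe set had 856 and 754, a ratio of -0.18. The arrays therefore gave no direction for Has2 RNA. Has1, another hyaluronan synthase gene but not a member, had 1682 and 1584, a ratio of -0.09, from a single probe set. Hyaluronan itself, the backbone on which aggrecan aggregates form, was not measured.

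The supply of sulphate and sugars was the most even of the groups with 8 or more genes. All 8 genes were above the floor, 3 on the higher and 5 on the lower side, the range was from -0.23 to 0.05, and the median was -0.07. Slc26a2, the sulphate transporter whose loss causes a family of chondrodysplasias, had 1068 in the wild-type and 1019.8 in the mutant array, and its 3 probe sets ran from -0.07 to 0.05. Papss2, the PAPS synthase known as the main one of cartilage, had 4222 and 4380.0, a log2 ratio of 0.05, whereas a second probe set that may match several transcripts gave -0.24. Papss1, the other synthase, had 1022 and 969. Slc35b2, which carries PAPS into the Golgi, had 616 and 637, a ratio of 0.05, against -0.29 from its second probe set. Sulphate uptake and activation thus showed no gene past 0.32 by the brightest probe set.

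Sugar donors begin with UDP-glucose, and their genes were equal or slightly lower in the mutant array. Ugp2, which makes UDP-glucose, had 1991 in the wild-type and 1788 in the mutant array, a log2 ratio of -0.16, and all 5 of its probe sets were below 0, from -0.20 to -0.03. Ugdh, which oxidizes UDP-glucose to UDP-glucuronic acid, had 5368 and 5404, a ratio of 0.01. Uxs1, which turns UDP-glucuronic acid into UDP-xylose for the linker, had 798 and 682, a ratio of -0.23, with -0.34 and -0.32 from its other probe sets. Slc35d1, an ER transporter of UDP-sugars needed for chondroitin synthesis in cartilage, had 323 and 296, a ratio of -0.13, with -0.27 from the second probe set. For Ugp2, Uxs1 and Slc35d1 every probe set was thus on the lower side, each by less than 1.5-fold.

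**Figure D2:**
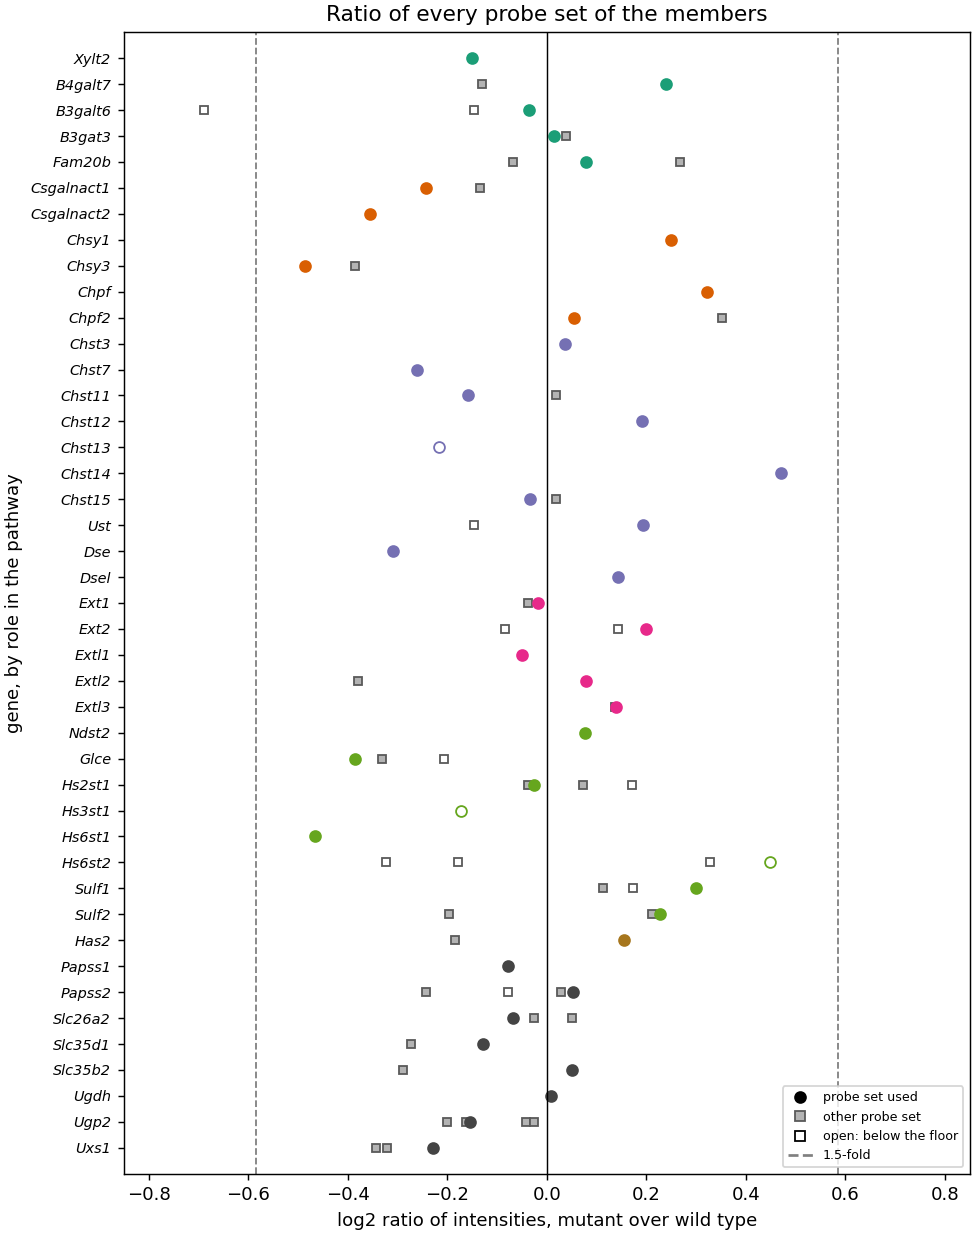
Log2 ratio of mutant over wild-type intensity (x axis) for every probe set of the 43 measured genes (y axis), with coloured circles for the probe set used, grey squares for the others, open symbols below the floor and dashed lines at 1.5-fold. One open square, a B3galt6 probe set at -0.69, lies outside the lines, and the symbols of 11 genes at or above the floor fall on both sides of 0.

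Several pairs of related genes differed in sign by their brightest probe sets. The log2 ratio of Chsy1 exceeded that of Chsy3 by 0.74 and Dsel exceeded Dse by 0.45, each pair with opposite signs. Chpf exceeded Chpf2 by 0.27, with both above 0, but the second, dimmer probe set of Chpf2 gave 0.35. Csgalnact1 and Csgalnact2 differed by 0.11 and were both lower in the mutant array, and Sulf1 and Sulf2 differed by 0.07. Papss2 exceeded Papss1 by 0.13 and Ext2 exceeded Ext1 by 0.22, again with opposite signs in each pair. The first 3 gaps were wider than the probe set SD of 0.26, and the other 4 were not. Hs6st1 and Hs6st2 are left out here because Hs6st2 was below the floor. With 1 array a group, none of them was tested.

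Other genes of the pathway were taken from 4 further lists. Of 23 other synthesis genes, 21 were measured and 12 were at or above the floor, 2 with ratios higher than 0, 9 lower and 1 at 0. That is 16.7% above 0, against 44.8% of all genes. The median of the 12 was -0.07. None of them differed 1.5-fold by its brightest probe set, against 1.7% of all genes higher and 2.02% lower. Uap1, which makes UDP-N-acetylglucosamine, an amino sugar donor, had 6549.6 in the wild-type and 5337 in the mutant array, a log2 ratio of -0.30, and all 5 of its probe sets were lower, from -0.80 to -0.20. Hs3st2, a heparan 3-O-sulphotransferase, was the highest at 0.44, from 192 to 260.0, by the only 1 of its 3 probe sets at or above the floor. It was -0.08 once probe sets named as matching several transcripts were left out, but that value came from a probe set below the floor. Of 9 keratan sulphate genes, 6 were at or above the floor with a median of -0.02, between B3gnt2 at -0.18 and Chst1 at 0.24. Uap1 was thus lower by every one of its probe sets, the lowest of them past 1.5-fold.

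Genes that degrade the chains in lysosomes or outside the cell had more ratios above 0 than below. Of 20 listed, 17 were measured and 16 were at or above the floor, 11 with ratios higher than 0 and 5 lower. That is 68.8% above 0, against 44.8% of all genes. The median log2 ratio of the 16 was 0.15, against -0.02 for all genes. None of them differed 1.5-fold, against 1.7% of all genes higher and 2.02% lower. Of the 16, 2, which is 12.5%, had a ratio of 0.32 or more, against 5.57% of all genes, while 0 were lower by as much, against 9.25%. Arsb, the lysosomal sulphatase that acts on dermatan and chondroitin sulphate, had 389 in the wild-type and 527 in the mutant array, a ratio of 0.44, or 0.28 as the mean over its 3 probe sets. Arsg, a lysosomal sulphatase of heparan sulphate, was the lowest at -0.21, at 200.2 and 173.

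The core proteins that carry the chains differed more than the members at their extremes, but not in the typical gene. The median size of the log2 ratio, regardless of sign, was 0.13 for core proteins at or above the floor and 0.15 for the members. Of 29 listed, 24 were at or above the floor, 16 with ratios higher than 0 and 8 lower, with a median of 0.07. That is 66.7% above 0, against 44.8% of all genes. Of these 24, 1 was at least 1.5-fold higher and 0 were lower by as much, against 1.7% and 2.02% of all genes. Vcan, the gene of versican, a large chondroitin sulphate proteoglycan of soft connective tissue, had 102 in the wild-type and 197 in the mutant array, a log2 ratio of 0.95 or 1.93-fold. Its second probe set at or above the floor gave 1.09, and the mean over all 8, of which 6 were below the floor, was 0.43. Acan, the gene of aggrecan, had 8223 and 8564, a ratio of 0.06. Cd44, the hyaluronan receptor, and Srgn, the gene of the intracellular proteoglycan serglycin, were chosen after their values were seen, and lay just short of 1.5-fold lower at -0.58 each. Their lowest values over the processing alternatives, -0.78 and -0.60, were past it. Col18a1, a collagen that carries heparan sulphate, was chosen in the same way and lay as close on the other side, at 204 and 303, a ratio of 0.57, with 0.24 from its second probe set and 0.61 at the highest over the alternatives. By the brightest probe set, Vcan was thus the gene of this list farthest from 0 at or above the floor, and Acan was near 0. Cd44 had 1897 in the wild-type and 1272 in the mutant array by its brightest probe set. All 3 of its probe sets at or above the floor were lower, the lowest at -1.0048. As the mean over all probe sets, Cd44 at -0.67 lay farther from 0 than Vcan at 0.43.

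Signals of other cell types differed between the same arrays. All 13 chondrocyte markers were at or above the floor in both, with a summed intensity of 163422 in the wild-type and 163857 in the mutant array and a median log2 ratio of 0.02. Of the 13, 8 were above 0 and 5 below. Cnmd was the highest at 0.07 and Ucma the lowest at -0.38, from 7611 to 5864, with -0.01 from its second probe set. Col2a1 had 27997 and 29057, and Matn1 had 4373 and 4340.1, a ratio of -0.01, although an expression array does not tell the alleles apart. Among all genes at or above the floor, 44.8% were above 0 and 1.7% at least 1.5-fold higher. Of 14 fibrous tissue markers at or above the floor, 13 were above 0 and 9 at least 1.5-fold higher, with a median of 1.08. The sum over all 15 was 39870.2 in the wild-type and 69536 in the mutant array. Kera, the keratocan gene of tendon and cornea, was the highest at 1.79 and Pdgfra the lowest at -0.10. Of 8 endothelial markers at or above the floor, 7 were above 0 and 5 at least 1.5-fold higher, with a median of 0.89 and a sum of 994 and 1445 over all 12. The median over all 12 was 0.89 too. The floor uses the mean of both arrays, so a gene can pass through 1 array alone. In the wild-type array 6 of the 12 endothelial and 13 of the 15 fibrous markers reached it. Scx, a fibrous marker at 50.1 and 73.0, passed through the mutant array. Emcn, at 38.2 and 96.4, and Robo4, at 48.0 and 86.2, did so too, and both count among the 5 endothelial markers. Cdh5 was the highest endothelial marker at 1.39, from 55.1, just above the floor, to 144, or 0.75 as the mean over its probe sets. Egfl7 had -0.19 by its brightest probe set, but its probe sets above the floor ran from -0.19 to 0.38. No marker was listed at an intensity of 0. The part of fibrous and endothelial RNA in the value of Vcan, which is not a member, and in the values of all the members was not tested.

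Markers of osteoblasts, blood cells and macrophages, and muscle differed less by their medians than the fibrous and endothelial markers, but heat shock genes did not lie near 0. Over the 2 osteoblast markers at or above the floor the median was 0.17, with Alpl at 0.24 and Sp7 at 0.09, and the 5 measured summed to 207 and 254. Over 5 blood and macrophage markers at or above the floor it was 0.01, between Cd14 at -0.34 and Alas2 at 0.31, and the sum over all 11 was 2000.3 in the wild-type and 1708 in the mutant array. Cd14 alone went from 1500.4 to 1187, and the median ran from -0.08 to 0.09 over the alternatives, so this list had no settled direction. Over 5 muscle markers it was -0.16, between Tnnt3 at -0.48 and Des at 0.45, and the sum over all 10 was 2667 and 2104.5. That sum is mostly Tnnt3, at 1930.0 and 1388, the median ran from -0.44 to 0.06 over the alternatives, and Des had 0.16 as the mean over its probe sets. Heat shock genes, which respond to damaged protein and mark no cell type, were all 12 below 0, whereas 44.8% of all genes were above 0. Of the 12, 7 were at least 1.5-fold lower, against 2.02% of all genes. The median of the 12 was -0.72, with sums of 106386 and 80240.1, and ratios ran from Dnaja4 at -1.48 to Hspa1b at -0.15. The part of heat shock genes in the members' values was not tested either.

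**Figure D3:**
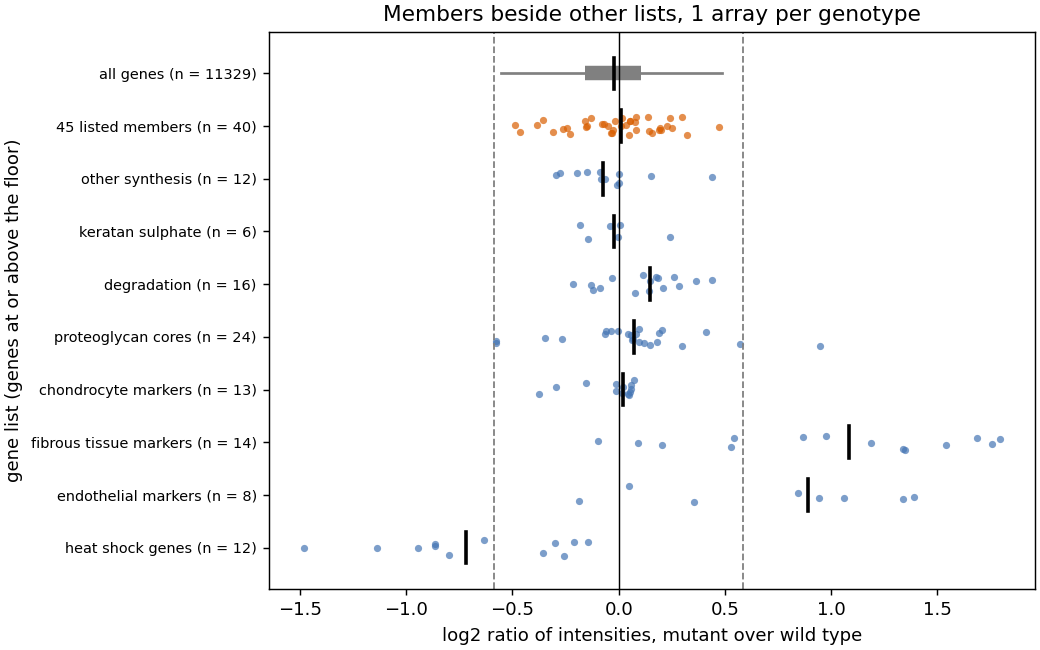
Log2 ratio of mutant over wild-type intensity (x axis) for genes at or above the floor in each list (y axis), with 1 point a gene, black bars at the medians, dashed lines at 1.5-fold, and for all genes a box from the lower to the upper quartile and a line from percentile 2.5 to percentile 97.5. All 40 points of the glycosaminoglycan genes lie between the dashed lines around a median of 0.01, whereas the medians of fibrous tissue (1.08), endothelial (0.89) and heat shock genes (-0.72) lie outside them.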

How the data were processed

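Each genotype had 1 Affymetrix array (Mouse Genome 430 2), with 6 µg of total RNA labelled for each, per the labels' protocols. The authors deposited a probe set intensity on a linear scale for 45037 probe sets. MAS5 is named in the submitters' processing notes. Its version, scaling and background step were not given in the sources used here, so arrays may have been scaled together or apart. The number of arrays limits the precision.

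GEO's platform annotation tied 34945 probe sets to 1 symbol, 932 to several and 9160 to none; only the first kind was used. Each gene was represented by the probe set brightest on average over both arrays. No further normalization was applied. Coordinates are left out, since the files name no genome build. Ratios are log2 of mutant over wild type. The members and gene lists were chosen with earlier results of these data known. All members are named, and from other lists those 1.5-fold apart with probe sets of the same sign, otherwise the highest and lowest. From marker lists the highest and lowest are named, with Col2a1, Acan and Matn1. Has1, Emcn, Robo4 and Scx are named outside this rule, with their values seen, as are Cd44, Srgn and Col18a1. The fold calls were run on simulated data in which 200 genes were changed 4-fold. This checked the code and did not test how well smaller changes are found. Python 3.11.15, numpy 2.4.6, pandas 2.3.3 and statsmodels 0.14.6 were used.

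Alternatives were centring, quantile normalization, loess (span 0.3), an offset of 32 before log2, floors at the 40th or 60th percentile or none, the mean over probe sets, leaving out probe sets ending in _s_at, _x_at or _a_at, and thresholds of 0.32 on the log2 scale and of 2-fold.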

Additional observations from a re-analysis of the deposited data

How the results depend on the processing

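The count of members at least 1.5-fold apart was 0 in each direction under all 9 alternatives of scaling, floor and probe set choice, under the mean over probe sets at or above the floor, which was chosen after the data were seen, and at a threshold of 2-fold. At a log2 threshold of 0.32 it was 2 higher and 4 lower. The median over the members ran from -0.02 to 0.05, so its sign was not settled. Of 43 members, 31 kept the sign of their ratio under the alternatives that gave them a value and 12 did not, namely B3gat3, B4galt7, Ext1, Extl1, Extl2, Has2, Hs2st1, Papss2, Slc26a2, Slc35b2, Sulf2 and Ugdh. Chpf, Hs3st1 and Xylt2, 3 of the 31, have only probe sets ending in _a_at and so had no value when those were left out. The values of B4galt7 (-0.13) and Sulf2 (-0.20) with only probe sets not named as matching several transcripts, and of Hs6st2 (0.07) as a mean over probe sets, moved by more than the probe set SD of 0.26. Chst14, Chsy3 and Hs6st1 were past 0.32 under every alternative to scaling, floor and probe set choice, while Chpf, Csgalnact2 and Glce were not. No paired analysis was possible because each group has 1 array.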

Other observations

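One probe set lists Chst11 together with another gene, Phactr1, and so entered no comparison. It was below the floor in both arrays, at 14.0 for wild type and 19.6 for the mutant.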
